A study of Mus musculus with 12 samples.

Results

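The actin isoform genes examined here are *Acta1*, *Actc1*, *Acta2*, *Actb* and *Actg1*, which encode the skeletal, cardiac and smooth muscle α-actins and the cytoplasmic β- and γ-actins. H3K4me3, trimethylation of histone H3 at lysine 4, was mapped by ChIP–seq in nuclei of adult mouse cardiomyocytes (CMs). All peaks that the deposited table assigns to these 5 genes were taken, which gave 5 peaks, 1 for each gene, of 15848 union peaks in all. The family was chosen with the genotype differences of its members in these same libraries already known. These differences are therefore given as a description, and no test of them is taken as evidence.

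The comparison used 3 H3K4me3 libraries per genotype. CtrlCre mice were αMHC-Cre pos/+ with intact *Cpt1b* +/+ alleles, and Cpt1bcKO mice were αMHC-Cre pos/+ with *Cpt1b* fl/fl alleles. Both genotypes therefore carry the Cre recombinase, driven by the αMHC promoter, which is active in CMs from embryonic stages, so *Cpt1b* was lost long before the adult nuclei were collected. *Cpt1b* encodes carnitine palmitoyltransferase of muscle, without which mitochondria cannot take up and burn long-chain fatty acids, and the comparison asks where the mark differs once this is disabled. Nuclei came from ventricles and were sorted for PCM1, a protein that surrounds CM nuclei. With 3 mice of each genotype described, each library may stand for 1 mouse, although the labels do not tie libraries to animals. The age beyond adult is not given in the sources used here.

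Actin monomers polymerize into filaments that form the thin filaments of the sarcomere in striated muscle and the cytoskeleton in every cell. Cardiac α-actin is the main actin of the adult heart, skeletal and smooth muscle α-actin are made in the embryonic heart and recede as the heart matures, and renewed *Acta1* expression is a textbook sign of a stressed myocardium. H3K4me3 marks promoters of active genes, and at highly transcribed genes of a cell type it often spreads into broad domains.

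Reads in peaks ranged from 763133 in CtrlCre replicate 2 to 2766416 in Cpt1bcKO replicate 2, and the peak values are counts divided by size factors that even out depth, here called normalized counts. Of all peaks, 15039 had a mean of at least 10 normalized counts and were tested, all 5 actin isoform peaks among them. Of 10 CM markers, 9 had a peak (*Mb* had none). So did 5 of 10 smooth muscle and pericyte markers, 1 of 10 fibroblast markers, 1 of 10 endothelial markers and 0 of 10 leukocyte markers. The peak at *Cpt1b* itself carried 428, 407 and 436 normalized counts in CtrlCre libraries and 572, 689 and 568 in Cpt1bcKO libraries, which shows the mark over the gene and not its deletion.

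The upstream sequences of the actin isoform genes are shown because the family is known for the CArG box, the binding site of serum response factor (SRF), which drives muscle actin genes. They were taken from RefSeq on GRCm38.p6, in which 4 of the 5 members matched. All lie on the minus strand and are written 5′ to 3′ in the direction of transcription, ending towards the RefSeq start. The part of each 250-base window that falls in annotated exon 1 was left out. For *Acta2*, where this part covers 217 bases, only the boxes with 10 bases on each side are given. In the GENCODE annotation *Actc1* starts 673 bases upstream of the RefSeq start, so its printed stretch lies within that gene model. Capitals mark CArG boxes, in which 6 bases that are all A or T stand between CC and GG, and CArG-like boxes, in which 1 of these 6 bases is G or C.
Acta1, chr8:123894776-123895025: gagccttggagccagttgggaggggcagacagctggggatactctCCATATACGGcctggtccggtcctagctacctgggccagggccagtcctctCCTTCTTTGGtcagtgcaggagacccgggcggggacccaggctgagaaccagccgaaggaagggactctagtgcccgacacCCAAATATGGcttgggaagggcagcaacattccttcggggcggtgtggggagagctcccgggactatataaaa
Actc1, chr2:114052888-114053125: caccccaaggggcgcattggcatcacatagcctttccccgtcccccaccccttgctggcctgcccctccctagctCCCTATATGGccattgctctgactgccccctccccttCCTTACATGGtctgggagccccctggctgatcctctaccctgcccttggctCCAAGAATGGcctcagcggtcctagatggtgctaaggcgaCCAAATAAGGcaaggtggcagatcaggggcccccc
Acta2 site 1, chr19:34255438-34255467: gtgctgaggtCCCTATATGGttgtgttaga
Acta2 site 2, chr19:34255388-34255417: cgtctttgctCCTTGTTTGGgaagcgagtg
Actg1, chr11:120348543-120348745: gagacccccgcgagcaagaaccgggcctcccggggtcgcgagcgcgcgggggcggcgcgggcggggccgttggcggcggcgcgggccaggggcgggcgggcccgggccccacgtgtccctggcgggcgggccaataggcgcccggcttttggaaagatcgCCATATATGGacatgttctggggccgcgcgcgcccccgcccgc

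CArG boxes, which read as the same pattern on either strand, were present in 3 of the 4 windows. *Acta1* held 1 CArG box, from 73 to 64 bases before the RefSeq start, and 2 CArG-like boxes farther upstream. *Actc1* held 1 CArG box, from 47 to 38 bases before the start, and 3 CArG-like boxes. In *Acta2* no CArG box but 2 CArG-like boxes were found, from 84 to 75 and from 34 to 25 bases before the start. *Actg1* held 1 CArG box, from 90 to 81 bases before the start. Over all 32851 RefSeq windows of the same length, 1.47% held a CArG box, 7.24% a CArG-like box and 8.59% at least 1 of either.

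Other features of the whole 250-base windows differed among the 4 genes. TATAA, the core of the TATA box, was searched on both strands and was present in *Acta1* only, which placed it among 22.8% of all windows. CATTCC, the core of the MCAT element of muscle genes, occurred in *Acta1* and, on the other strand, in *Acta2*, and in 12.6% of all windows. *Actg1* held 43 CpG dinucleotides, more than 99.3% of windows, and had a GC content of 79.2%. The muscle windows held 9 (*Acta1*), 4 (*Actc1*) and 4 (*Acta2*) CpG dinucleotides, against a median of 6 over all windows. None of the searched motifs overlapped another in these windows.

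The proteins encoded by the 5 genes were nearly identical, although their coding sequences were not. Translated from the GENCODE transcripts, the muscle actins had 377 residues and the cytoplasmic actins 375. *Acta1* and *Actc1* differed at 4 of 377 aligned residues while their coding sequences were identical at 86.3% of bases. *Acta2* differed from *Acta1* at 8 residues and from *Actc1* at 6, and *Actb* from *Actg1* at 4. Muscle and cytoplasmic actins differed at 23 to 26 residues.

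Because of this similarity, it was examined how well reads of the length used, 75 bases, can be placed. Only uniquely mapped reads entered the table. Of all 75-base windows in a peak, 99.8% at *Acta1*, 100% at *Actc1*, 100% at *Acta2* and 99.8% at *Actb* occurred once in the genome. At *Actg1* 83.2% did, so part of that peak could not collect reads.

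The peaks differed in how far they spread around the gene start, as the plot of peak extents shows. Coordinates are those of the deposited table on GRCm38, and all 5 genes lie on the minus strand. The *Actc1* peak (chr2:114047622-114058602) was 10980 bases wide, wider than 99.7% of tested peaks, and reached 5715 bases upstream and 5265 bases downstream of the gene start. It also overlapped 2 noncoding genes on the opposite strand, A530058N18Rik and C130080G10Rik. The *Actg1* peak (chr11:120345110-120354036) was 8926 bases wide, wider than 99.5% of tested peaks, with 5494 bases upstream of the start. It covered the divergent noncoding gene 0610009L18Rik, so neither of these broad peaks can be ascribed to the actin gene alone.

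**Figure D1:**
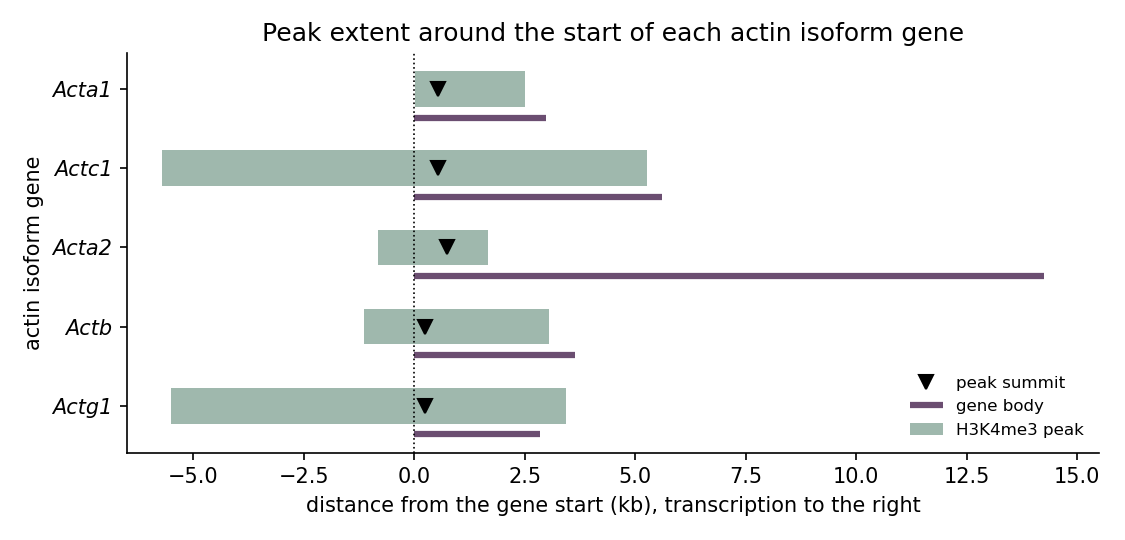
Extent of the H3K4me3 peak at each actin isoform gene, with the distance from the gene start in kilobases on the horizontal axis and transcription running to the right. Bars are union peaks, triangles are peak summits and lines are gene bodies. The *Actc1* and *Actg1* peaks reach over 5 kb upstream, whereas the *Acta1* peak lies wholly within the gene.

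The other 3 peaks were narrower. The *Actb* peak (chr5:142903692-142907897) was 4205 bases wide and lay to 72.8% in the gene body. The *Acta2* peak (chr19:34253670-34256162) was 2492 bases wide, spanned the start and covered none of the coding sequence. The *Acta1* peak (chr8:123892252-123894726) was 2474 bases wide and lay wholly in the gene body, beginning 25 bases downstream of the start, and 39.1% of it was coding sequence. It also lies within Gm20388, a long gene model on the opposite strand. The upstream *Acta1* sequence printed above was thus outside the peak, whereas those of *Actc1*, *Acta2* and *Actg1* were inside theirs. Summits lay 241 (*Actg1*) to 735 (*Acta2*) bases downstream of the start.

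Among the sarcomeric isoforms, H3K4me3 was higher at *Acta1* and lower at *Actc1* in Cpt1bcKO CMs. *Acta1*, the skeletal α-actin gene, carried 22, 46 and 42 normalized counts in CtrlCre replicates 1 to 3 and 93, 170 and 142 in Cpt1bcKO replicates 1 to 3. Every Cpt1bcKO library lay above every CtrlCre library. Means were 36.7 ± 12.9 (SD, n = 3) and 135 ± 39.0 (SD, n = 3), a log2 difference of 1.88 (SE 0.24), or 3.67-fold on the scale of log2(value + 1). Of the 15039 tested peaks, 18 had a larger increase. Its values rested on 20 to 262 reads, and counting error alone amounted to 22.4% of the lowest.

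*Actc1*, the cardiac α-actin gene, carried 858, 723 and 924 normalized counts in CtrlCre libraries and 487, 605 and 307 in Cpt1bcKO libraries. The genotypes did not overlap, although Cpt1bcKO replicates 2 and 3 differed from each other by more than the CtrlCre libraries did. Means were 835 ± 102 and 466 ± 150 (SD, n = 3 each), a log2 difference of -0.89 (SE 0.16), or 0.541 times the control level. The peak stood above 99.8% of tested peaks in mean signal, and 306 tested peaks had a larger decrease.

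**Figure D2:**
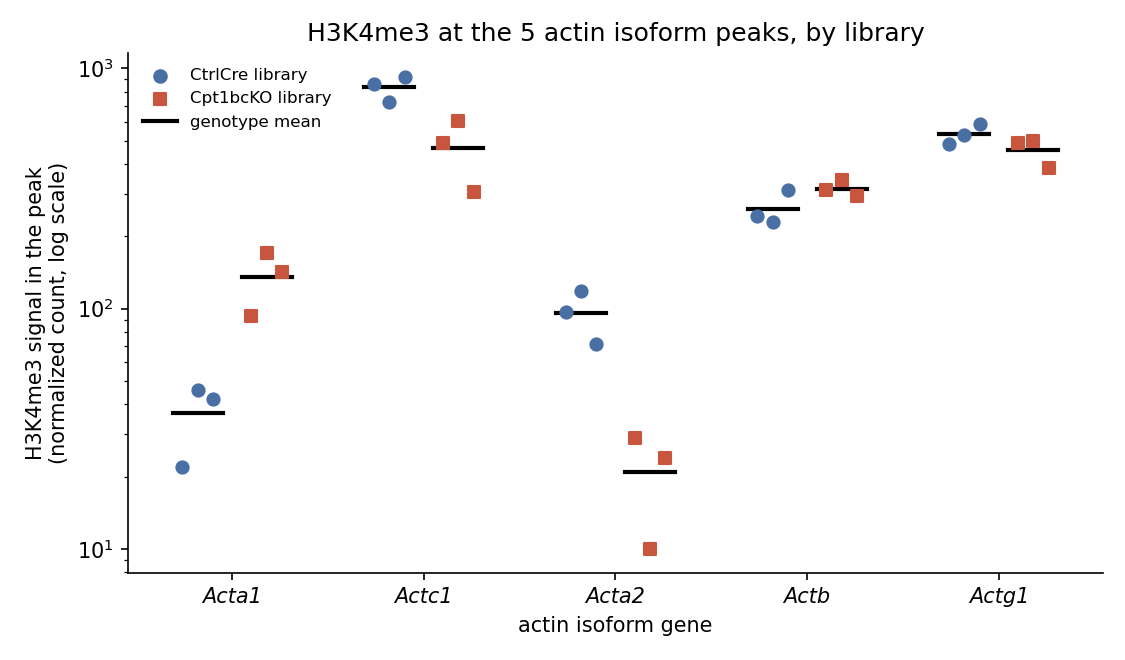
Normalized counts of the 5 actin isoform peaks on a log axis, with 1 point for each of 3 CtrlCre (circles) and 3 Cpt1bcKO (squares) libraries and black lines at the genotype means. *Acta1* is higher in every Cpt1bcKO library (93 to 170 against 22 to 46), *Actc1* and *Acta2* are lower in every one, and the genotypes overlap at *Actb* and *Actg1*.

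At the smooth muscle isoform the signal was lower in Cpt1bcKO libraries. *Acta2* carried 97, 119 and 71 normalized counts in CtrlCre libraries and 29, 10 and 24 in Cpt1bcKO libraries. All 3 Cpt1bcKO values lay below the lowest CtrlCre value. Means were 95.7 ± 24 and 21.0 ± 9.85 (SD, n = 3 each), a log2 difference of -2.23 (SE 0.30), or 0.214 times the control level, and 22 tested peaks had a larger decrease. The lowest value, in Cpt1bcKO replicate 2, rested on 15 reads, with a counting error of 25.8%. In such bulk samples, fewer nuclei of a cell type and less of the mark per nucleus cannot be told apart, although sorting for PCM1 is meant to remove nuclei other than those of CMs.

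Markers of smooth muscle cells and pericytes are therefore given beside *Acta2*. Of 10 such markers 5 had a peak (*Tagln*, *Rgs5*, *Pdgfrb*, *Lmod1* and *Notch3* had none), and their summed signal ranged from 377 to 437 normalized counts in CtrlCre and from 402 to 440 in Cpt1bcKO libraries. The mean difference was 3 (exact two-sided permutation test, p = 0.800, the smallest possible p being 0.1). Most of this sum came from *Des*, the desmin gene, which CMs express too. Without *Des*, a choice made after seeing the data, the sum ranged from 145 to 172 in CtrlCre and from 82.0 to 120 in Cpt1bcKO libraries (exact permutation p = 0.1).

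The 4 markers other than *Des* carried 6 to 84 normalized counts, and *Des* carried 205 to 320. *Myh11*, the smooth muscle myosin heavy chain gene, carried 18, 14 and 27 normalized counts in CtrlCre and 15, 6 and 15 in Cpt1bcKO libraries, and the genotypes overlapped. *Cspg4*, the pericyte proteoglycan NG2, carried 59, 84 and 42 against 36, 16 and 38, without overlap, with a log2 difference of -1.05 (SE 0.30, limma adjusted p = 0.0610). *Cnn1*, the calponin gene, carried 14, 21 and 22 against 14, 12 and 10, and *Smtn*, the smoothelin gene, 72, 53 and 54 against 55, 48 and 57, both with overlap. *Acta2* stood at 49.0% to 69.2% of the markers without *Des* in CtrlCre libraries and at 12.2% to 24.2% in Cpt1bcKO libraries. The part of these cells in the *Acta2* difference was not tested. The single endothelial marker with a peak, *Kdr*, overlapped between the genotypes, at 39 to 91 against 31 to 51, as did the single fibroblast marker, *Pdgfra*, at 58 to 69 against 56 to 63.

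In normalized counts, the genotypes overlapped at the cytoplasmic isoforms. *Actb*, the β-actin gene widely used as a reference, carried 242, 230 and 311 normalized counts in CtrlCre libraries and 311, 342 and 293 in Cpt1bcKO libraries. CtrlCre replicate 3 lay within the Cpt1bcKO range, and the log2 difference was 0.28 (SE 0.11). *Actg1*, the γ-actin gene, carried 484, 530 and 584 against 491, 500 and 385, with a log2 difference of -0.22 (SE 0.11). Here Cpt1bcKO replicates 1 and 2 lay within the CtrlCre range and replicate 3 below it.

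Of the 5 peaks, 3 (*Acta1*, *Actc1* and *Acta2*) passed an adjusted p of 0.05 in limma, and the same 3 had genotypes that did not overlap. Over all tested peaks 2.93% passed, 1.11% higher and 1.82% lower, and 16.3% had genotypes that did not overlap. Since the family was chosen by these differences, nothing is read from its count. The log2 differences under the 14 fits run, each of which used the same values, are shown in the plot of differences by setting. *Actb* reached 0.41 without CtrlCre replicate 3, where it also passed.

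**Figure D3:**
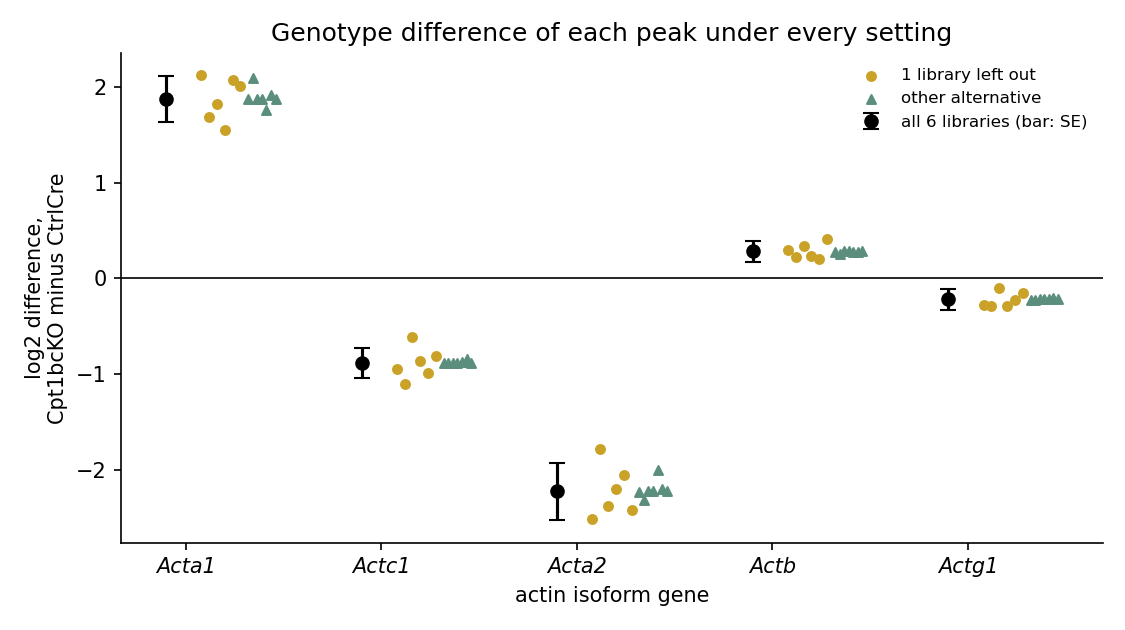
Log2 difference (Cpt1bcKO minus CtrlCre) of each actin isoform peak in the fit of all 6 libraries (black, bar: SE), with 1 library left out (circles) and under other processing alternatives (triangles). *Acta1* ranges from 1.55 to 2.12, *Actc1* from -1.10 to -0.61 and *Acta2* from -2.51 to -1.79, while *Actb* lies between 0.20 and 0.41 and *Actg1* between -0.29 and -0.10.

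Peaks in the neighbourhood of the genes are given as a description, and a shift of the whole locus was not tested. The nearest other peak lay 7500 (*Actb*) to 34260 (*Acta2*) bases away. Beside *Acta1* the nearest peak, at *Ccsap*, had a log2 difference of 0.28 (SE 0.12), and beside *Acta2* that at *Fas* had one of -0.01 (SE 0.14). Beside *Actc1* the peak at *Gjd2* carried only 6 to 27 normalized counts and a difference of -0.42 (SE 0.53). None of the 5 nearest peaks passed an adjusted p of 0.05 in limma, while 2.93% of all tested peaks did.

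To compare levels between the isoforms, signal was divided by peak width. In CtrlCre CMs the order was *Actc1* (76.0 ± 9.33 normalized counts per kilobase), *Actb* (62.1 ± 10.4), *Actg1* (59.7 ± 5.61), *Acta2* (38.4 ± 9.64) and *Acta1* (14.8 ± 5.20; SD, n = 3 each). The ranges of *Actc1* and *Actb* overlapped, as did those of *Actb* and *Actg1*, whereas *Acta2* lay below *Actg1*, and *Acta1* below *Acta2*, in all 3 libraries with no overlap. Because 83.2% of the *Actg1* peak can collect unique reads, its level per mappable kilobase, computed after seeing the data, was 71.7 ± 6.74, which placed it above *Actb* at 62.2 ± 10.4 and below *Actc1*, with overlapping ranges in both cases.

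In Cpt1bcKO CMs the order was *Actb* (75 ± 5.89 per kilobase), *Acta1* (54.6 ± 15.8), *Actg1* (51.4 ± 7.17), *Actc1* (42.5 ± 13.7) and *Acta2* (8.43 ± 3.95; SD, n = 3 each). *Acta1*, the lowest member in controls, thus ranked among the middle ones, and its range overlapped that of *Actg1*. The ranges of *Actg1* and *Actc1* overlapped too, although *Actg1* was higher in 3 of 3 libraries. *Acta2* lay below *Actc1* with no overlap. Per mappable kilobase *Actg1* stood at 61.8 ± 8.61, above *Acta1* at 54.7 ± 15.8, with overlapping ranges. Not divided by width, *Actc1* and *Actg1* led in both genotypes, and *Acta1* and *Acta2* exchanged the last 2 places.

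**Figure D4:**
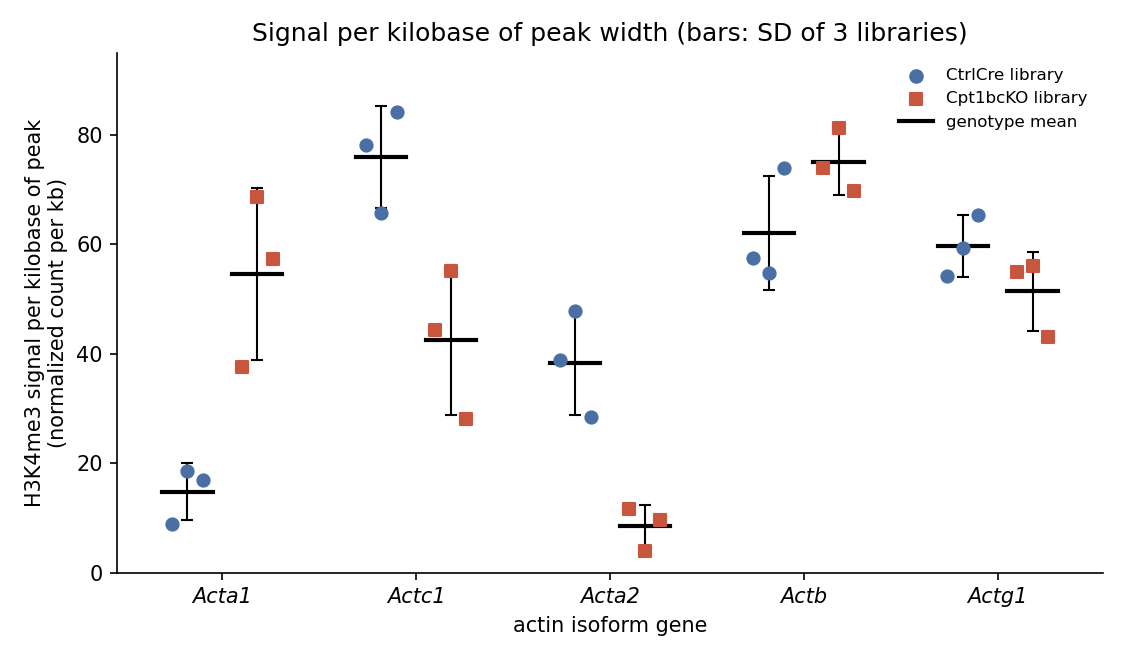
H3K4me3 signal per kilobase of peak width (normalized counts per kilobase) for each actin isoform gene, with 1 point per library (circles CtrlCre, squares Cpt1bcKO), lines at the genotype means and bars for the SD of 3 libraries. *Actc1* leads in CtrlCre at 76.0 and *Actb* in Cpt1bcKO at 75, while *Acta1* moves from 14.8 to 54.6.

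The balance between the 2 sarcomeric isoforms was followed within each library, where depth cancels. Per kilobase, *Acta1* reached 11.4%, 28.2% and 20.2% of *Actc1* in CtrlCre libraries and 84.8%, 125% and 205% in Cpt1bcKO libraries. Per kilobase *Actc1* was thus the higher isoform in all CtrlCre libraries and *Acta1* in Cpt1bcKO replicates 2 and 3. This exchange rests on the division by widths of 2474 and 10980 bases, since per peak *Acta1* reached 19.1%, 28.1% and 46.3% of *Actc1* in Cpt1bcKO libraries and stayed the lower one. The log2 ratio was -2.42 ± 0.663 in CtrlCre and 0.373 ± 0.640 in Cpt1bcKO libraries (SD, n = 3 each), a difference of 2.80.

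Of the summed signal of the 5 peaks, *Actc1* held 43.9% to 50.4% in CtrlCre and 26.7% to 37.2% in Cpt1bcKO libraries. The share of *Acta1* was 1.29% to 2.79% in CtrlCre and 6.59% to 12.3% in Cpt1bcKO libraries. The sum itself was 1761 ± 151 in CtrlCre and 1396 ± 238 in Cpt1bcKO libraries (SD, n = 3 each). *Actb* held 14.0% to 16.1% in CtrlCre and 21.0% to 25.5% in Cpt1bcKO libraries, with no overlap, whereas the share of *Actg1* overlapped, at 28.4% to 32.2% against 30.7% to 34.8%. Per kilobase, *Actb* stood at 92.1% to 113% of *Actg1* in CtrlCre and at 134% to 162% in Cpt1bcKO libraries, again with no overlap. Since the genotypes overlapped in the normalized counts of *Actb*, its separation in these ratios depends also on the divisor. The means of the summed signal and of *Actg1* were both lower in Cpt1bcKO libraries.

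The same values were set against the CM markers. The summed signal of the 9 markers was 8140 ± 741 in CtrlCre and 7094 ± 1270 in Cpt1bcKO libraries (SD, n = 3 each), a difference of -1046 (exact two-sided permutation test, p = 0.400). Relative to this sum *Actc1* stood at 10.7%, 9.68% and 10.3% in CtrlCre and at 6.75%, 7.29% and 5.33% in Cpt1bcKO libraries, with no overlap. Cpt1bcKO replicate 3, which was lowest for *Actc1*, also had the lowest marker sum, at 5765. The largest part of the sum came from *Myh6*, at 2605, 2399 and 2930 in CtrlCre and 2142, 2446 and 1544 in Cpt1bcKO libraries, with overlap. *Mybpc3* was higher in Cpt1bcKO libraries without overlap, at 791, 966 and 777 against 661, 760 and 690, so the markers did not all move alike. *Acta1* stood at 0.275% to 0.616% of the sum in CtrlCre and at 1.29% to 2.46% in Cpt1bcKO libraries, with no overlap. *Actb* stood at 3.02%, 3.08% and 3.48% in CtrlCre and at 4.31%, 4.12% and 5.08% in Cpt1bcKO libraries, with no overlap. The normalized counts of *Actb* did overlap, so its separation here depends on the marker sum, whose mean was lower in Cpt1bcKO libraries. *Actg1* overlapped relative to the sum, at 6.04% to 7.10% against 6.03% to 6.80%.

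Genes of the same pathways were examined in 5 lists, shown in the plot of gene lists, with each gene represented by its peak of highest mean. Of 12 other genes of the actin family and actin-related proteins, 10 were tested and 0 passed an adjusted p of 0.05 in limma, 0 had an unadjusted p under 0.05 and 0 passed in limma-voom. Over all tested peaks these shares were 2.93%, 12.8% and 3.34%. *Actg2* and *Actbl2*, the enteric smooth muscle actin gene and a β-actin-like gene, had no tested peak. *Actr3*, a subunit of the Arp2/3 complex that branches filaments, had a log2 difference of -0.03 (SE 0.11), and *Actr1a*, the Arp1 filament of dynactin, one of -0.08 (SE 0.11). The median of the list was -0.03, and that of all tested peaks was 0.0057.

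Of 27 tested genes of filament assembly and turnover, 1 was higher, 0 were lower and 26 did not pass, with a median log2 difference of 0.01. Of all tested peaks 2.93% passed. An unadjusted limma p under 0.05 was found for 4 of the 27, against 12.8% of all tested peaks. *Arpc5*, a subunit of the Arp2/3 complex, rose from 188 ± 11.0 to 245 ± 12.6 normalized counts (log2 difference 0.38, SE 0.10, limma adjusted p = 0.0364). This call was lost in limma-voom (adjusted p = 0.0506), with a replicate block (adjusted p = 0.0653 in limma) and, of the 6 libraries left out in turn, in every case but CtrlCre replicate 3, with adjusted p from 0.0588 to 0.193 in limma. *Lmod2*, the leiomodin that elongates cardiac thin filaments, had a log2 difference of -0.09 (SE 0.13), and *Fhod3*, a sarcomeric formin, one of -0.13 (SE 0.10).

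Of 25 tested genes for actin-binding and thin filament proteins, 0 were higher, 1 was lower and 24 did not pass, and the median was -0.12. Among all tested peaks 2.93% passed, 1.82% lower, and the median was 0.0057. In this list 7 of the 25 had an unadjusted limma p under 0.05, against 12.8% of all tested peaks. *Csrp3*, the muscle LIM protein of the Z-disc, fell from 424 ± 41.4 to 308 ± 69.1 normalized counts (log2 difference -0.48, SE 0.12, limma adjusted p = 0.0347). It did not pass with a replicate block (adjusted p = 0.0627 in limma) or without CtrlCre replicate 1 (0.124), CtrlCre replicate 3 (0.147), Cpt1bcKO replicate 1 (0.191) or Cpt1bcKO replicate 3 (0.237). *Ldb3*, a Z-disc protein, and *Tpm1*, the tropomyosin that lies along the thin filament, had log2 differences of -0.14 (SE 0.11) and -0.12 (SE 0.11).

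Among regulators of actin genes, 3 of 19 tested were lower, 0 were higher and 16 did not pass, with a median of -0.04. Over all tested peaks 2.93% passed, 1.82% lower, and this list was chosen with earlier results of these data known. At an unadjusted limma p under 0.05 stood 4 of the 19, against 12.8% of all tested peaks. *Myocd*, myocardin, the cofactor of SRF at CArG boxes, carried 452, 423 and 454 normalized counts in CtrlCre and 286, 314 and 263 in Cpt1bcKO libraries. It fell by 0.62 on the log2 scale (SE 0.10, limma adjusted p = 0.000364). *Fhl2*, a LIM protein that binds SRF, fell from 1041 ± 45.9 to 660 ± 103 (log2 difference -0.67, SE 0.12, limma adjusted p = 0.00131). Both passed in all 13 alternative fits.

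*Tbx5*, a cardiac T-box factor, fell from 554 ± 23.5 to 416 ± 31.1 (log2 difference -0.41, SE 0.10, limma adjusted p = 0.0167). Its call was lost with a replicate block (adjusted p = 0.0543 in limma) and without CtrlCre replicate 1 (0.123), Cpt1bcKO replicate 2 (0.0514) or Cpt1bcKO replicate 3 (0.0751). *Hand2* and *Gata6*, cardiac transcription factors with the highest signal of those that did not pass, had log2 differences of -0.17 (SE 0.12) and -0.13 (SE 0.11).

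**Figure D5:**
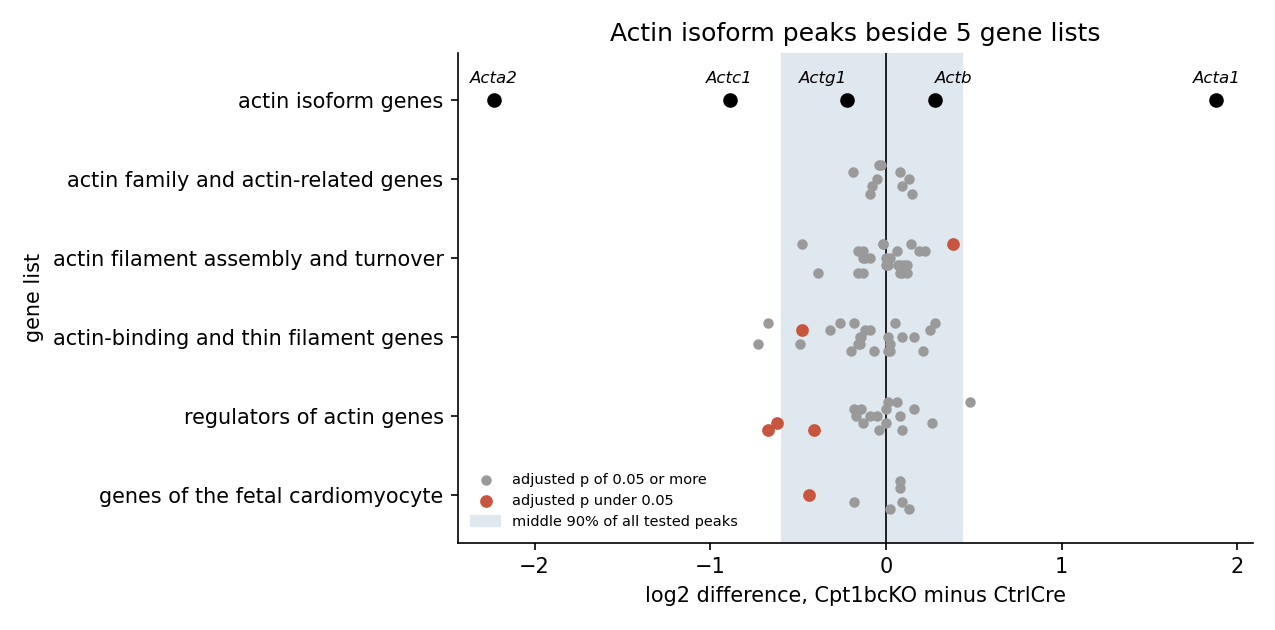
Log2 difference (Cpt1bcKO minus CtrlCre) of the actin isoform peaks (black, named) and of each tested gene in 5 lists (points, red where the adjusted p is under 0.05). The shaded band, from -0.59 to 0.43, leaves out the lowest and the highest 5% of all tested peaks, and *Acta2*, *Actc1* and *Acta1* lie outside it.

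Genes of the fetal CM could be followed only in part. Of 14 such genes 7 were tested, since *Nppa*, *Myh7*, *Myl4*, *Myl7*, *Myl9*, *Tnni1* and *Tagln* had no tested peak. Of these 0 were higher, 1 was lower and 6 did not pass, with a median of 0.08. The share of all tested peaks that passed was 2.93%, with 1.82% lower. An unadjusted limma p under 0.05 was found for 1 of the 7, against 12.8% of all tested peaks. *Ctgf*, a secreted matricellular protein, fell from 239 ± 12.1 to 177 ± 13.1 normalized counts (log2 difference -0.44, SE 0.10, limma adjusted p = 0.0159). Without CtrlCre replicate 1, CtrlCre replicate 3, Cpt1bcKO replicate 1 or Cpt1bcKO replicate 2 it did not pass, with adjusted p of 0.0531, 0.0799, 0.0547 and 0.0963 in limma. *Cyr61*, a related matricellular protein, and *Dstn*, destrin, which severs filaments, both had log2 differences of 0.08 (SE 0.10).

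Finally, the peaks whose pattern was most like that of each isoform were sought among 9326 gene-assigned peaks with a mean of at least 50, by Pearson's r of log2(value + 1) over the same 6 libraries. *Acta1* was most like *Jagn1* (r = 0.991), *Diexf* (r = 0.989) and *Mdm4* (r = 0.984), whose own log2 differences were only 0.11, 0.26 and 0.11. *Actc1* was most like *Flot1* (r = 0.997), *Msx1* (r = 0.994) and *Bloc1s1* (r = 0.990), and *Acta2* like *Lrrc3b* (r = 0.994), *Sptan1* (r = 0.992) and *Dennd4b* (r = 0.989). *Actb* was most like *Adhfe1* (r = 0.997), *Srpk2* (r = 0.989) and *Syap1* (r = 0.986). *Actg1* was most like *Myl2* (r = 0.998), the ventricular myosin light chain gene, *Hist1h4a* (r = 0.990) and *Dsp* (r = 0.988). These r values describe the order and spacing of 6 points shared by all peaks and not the size of a difference.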

How the data were processed

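The authors aligned ChIP–seq reads with STAR (2.6.1d) to mm10, kept unique alignments, removed duplicates with Picard (2.21.7), called peaks against input with MUSIC and merged them into union peaks. The authors divided the reads per peak by DESeq2 (1.26.0) size factors, so a change shared by all peaks is not visible. The deposited value per library is this normalized count rounded to whole numbers and was treated as a score. The deposited mean signal of each genotype, computed by the authors, is unrounded and served to recover whole reads, with 1 solution for 15848 of 15848 peaks. Deposited fold changes and p-values of the authors were not used, nor were the 3 input libraries of each genotype.

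Peaks with a mean of at least 10 were fitted with limma (3.58.1, R 4.3.3) on log2(value + 1) with genotype alone, two-sided, with Benjamini–Hochberg adjustment over 15039 peaks. A log2 difference on this scale understates changes of low peaks. The fit was tested on simulated data. P-values measure the spread between libraries, which may be technical. A floor of 3 reads equals 1.95 to 6.97 normalized counts, and errors from reads cover counting error only. The members, gene lists and markers were chosen with earlier results of these data known. The text names the members, the 3 most alike peaks of each, in each list up to 4 genes per direction with the smallest p and the 2 highest that did not pass, *Cpt1b* and the markers. Proteins were translated from GENCODE vM21 transcripts.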

Additional observations from a re-analysis of the deposited data

How the results depend on the processing

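Alternatives were a pseudocount of 5, no filter or a mean of at least 50, equal total signal, quantile normalization, a replicate block, limma-voom on recovered reads, the widest peak per gene, no division by width, mappable width (chosen after seeing the data) and leaving out each library. Of 187 values recomputed, 168 stayed within the replicate spread or within 1.5 times the count, 19 moved and 0 reversed. All log2 differences of the 5 actin isoform peaks were among the 168. No filter, a mean of at least 50 and a replicate block could not change the log2 difference of a peak, so those values are no check of it. The difference in the *Acta1* to *Actc1* log2 ratio ranged from 2.44 to 3.10 with 1 library left out. It was 2.80 without division by width and with mappable width. These 2 settings could not change it, since they scale a peak alike in every library. With 1 library left out, the number of actin isoform peaks that passed was 3 to 4, and peaks called over the whole table numbered 85 to 180 higher and 139 to 251 lower, against 167 and 274 with all libraries. Calls in the lists then ranged from 0 to 1 for filament assembly, 0 to 1 for actin-binding genes (the gene that passed need not be *Csrp3*) and 0 to 1 for fetal genes, and from 2 to 3 for regulators. In limma-voom on the recovered reads 174 peaks were higher and 329 lower. The call in filament assembly was also lost, leaving 0, with a replicate block and with limma-voom. The summed smooth muscle and pericyte markers differed by -52.7 without *Des*, chosen after seeing the data, against 3 with it.

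Replicate numbers are shared by the genotypes. Libraries with the same number, after subtracting the mean of their genotype, correlated at 0.0759 (number 1), -0.0812 (number 2) and 0.105 (number 3). Libraries with the same number thus shared little of their deviations. Whether they were prepared together is not given in the sources used here. With a replicate block, 138 peaks were higher and 232 lower, and 3 actin isoform peaks passed. Each block holds 1 library of each genotype, so the log2 differences, 1.88 for *Acta1* and -2.23 for *Acta2*, could not change. Only the SE could, which was 0.18 for *Acta1* and 0.30 for *Acta2* with the block.

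Depth limits *Acta1* and *Acta2* most, which rest on 15 to 262 reads per library. Age, sex and batch of the libraries are not given in the sources used here, and their part in the differences was not tested.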
